A study of Mus musculus with 15 samples.

Results

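The genes described here are Rpl34, Rpl34-ps1, Gm5900 and Alpk1, 4 of the 44827 genes in the authors' table. They were selected on their measured levels in these libraries, because those followed the non-leukemic groups labelled Tet2-/- and not the leukemic libraries. The levels below are therefore a description of the choice, and no test is given for them. All 4 passed the low-value filter that the tested genes had to meet, a level of 1 or more in 3 or more of the 15 libraries, which left 13927 genes. Levels are in CPM, the count of a gene scaled to the authors' size of its library. Rpl34 encodes a protein of the large ribosomal subunit. Rpl34-ps1 and Gm5900 are annotated as processed pseudogenes, and Alpk1 encodes alpha-kinase 1. The working name of the set counted Gm5900 among the copies of Rpl34, but its sequence did not match Rpl34. It matched Lamtor3, and Gm5900 is treated below as a copy of Lamtor3.

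The study measured RNA in LSK cells of mouse bone marrow by sequencing. LSK cells lack lineage markers and carry Sca1 and cKit, a fraction that holds the blood stem and early progenitor cells. There were 5 groups of 3 libraries, all labelled C57BL/6. The single genotypes were wild type (WT), Tet2-/- and Nras(G12D). Animals labelled Tet2-/- Nras(G12D) made up a group without leukemia (double mutant) and a group with leukemia (leukemic double mutant). The mutations were conditional and restricted to blood-forming tissue, and the driver of the deletion is not given in the sources used here. The animals of the study's methylome work were 6 months old per the design text. The labels do not tie each library to an animal of its own, so the p-values below speak only of the spread among libraries, part of which may be technical. The leukemic columns carry the tag BMT, which the labels do not explain and which cannot be told apart from leukemia here. "Tet2-null" below means the 6 non-leukemic libraries of the Tet2-/- and double mutant groups, and "Tet2-intact" the 6 of the WT and Nras(G12D) groups.

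Processed pseudogenes arise when a messenger RNA is copied back into DNA and inserted at another place in the genome. They carry the exons of the parent gene without its introns, and many have no promoter of their own. Reads from a young copy and from its parent can be nearly identical. ALPK1 is a cytosolic kinase that binds the bacterial sugar ADP-heptose and phosphorylates TIFA, which gathers TRAF6 and activates NF-kB. TET2 oxidizes 5-methylcytosine in DNA, and NRAS is a small GTPase upstream of the MEK and ERK kinases. LAMTOR3 is a subunit of the Ragulator complex on late endosomes and also binds MEK1.

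Coordinates are those of GENCODE M21 on GRCm38. Rpl34 lies on the minus strand at chr3:130726831-130730398, 2.78 Mb from Tet2 (chr3:133463679-133545139), measured between gene midpoints as are all distances from Tet2. Alpk1 lies on the minus strand at chr3:127670310-127780527, 5.78 Mb from Tet2. Lamtor3, the parent of Gm5900, is at chr3:137918506-137928900 on the plus strand and 4.42 Mb from Tet2. Nras is on the same chromosome, 30.4 Mb from Tet2. The copies are elsewhere: Rpl34-ps1 is at chr6:71124610-71124963 on the plus strand and Gm5900 at chr7:104949915-104950289 on the minus strand. Of the 4 genes, 2 thus lie near Tet2 and 2 are copies of a gene that does.

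The copies are shown beside their parents because so few bases separate them. Rpl34-ps1 is 354 bases long and differed from the Rpl34 coding sequence at 2 of them, an identity of 99.4%. Counted from the first base of the start codon, the substitutions were T132C, in exon 3 of 5 of Rpl34, and C318G, in exon 5 of 5 (the base of the parent first). Another copy that passed the filter, Gm10086 (chr5:108517179-108517532, plus strand), was 97.7% identical to Rpl34. It had 8 substitutions, which included T132C and C318G. Coding bases 112 to 338 are printed below. For Rpl34 they are spliced from exons within chr3:130726891-130729104 (minus strand), for Rpl34-ps1 they lie at chr6:71124721-71124947 (plus strand) and for Gm10086 at chr5:108517290-108517516 (plus strand). Capitals mark the bases at which Rpl34 and Rpl34-ps1 differ and, in Gm10086, every base that differs from Rpl34.
Rpl34: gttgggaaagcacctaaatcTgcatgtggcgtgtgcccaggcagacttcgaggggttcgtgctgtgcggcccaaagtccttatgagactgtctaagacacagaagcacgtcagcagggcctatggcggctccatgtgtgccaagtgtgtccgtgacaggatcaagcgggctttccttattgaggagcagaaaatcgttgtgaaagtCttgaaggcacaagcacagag
Rpl34-ps1: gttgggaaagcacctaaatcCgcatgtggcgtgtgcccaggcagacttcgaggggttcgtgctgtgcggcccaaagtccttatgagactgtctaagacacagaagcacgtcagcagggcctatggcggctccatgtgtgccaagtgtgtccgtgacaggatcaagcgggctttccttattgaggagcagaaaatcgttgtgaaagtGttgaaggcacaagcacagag
Gm10086: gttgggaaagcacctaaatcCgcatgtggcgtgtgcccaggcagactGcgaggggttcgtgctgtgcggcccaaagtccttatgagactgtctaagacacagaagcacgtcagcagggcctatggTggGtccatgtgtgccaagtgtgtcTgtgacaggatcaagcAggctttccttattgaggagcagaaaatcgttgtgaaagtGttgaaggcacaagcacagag

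Gm5900 is 375 bases long and differed from the Lamtor3 coding sequence at 2 of them, an identity of 99.5%. The substitutions were C111T, in exon 5 of 7 of Lamtor3, and G336A, in exon 7 of 7, again counted from the start codon. Coding bases 91 to 356 are shown with the differing bases in capitals. For Lamtor3 they are spliced from exons within chr3:137925158-137928001 (plus strand), and for Gm5900 they lie at chr7:104949934-104950199 (minus strand).
Lamtor3: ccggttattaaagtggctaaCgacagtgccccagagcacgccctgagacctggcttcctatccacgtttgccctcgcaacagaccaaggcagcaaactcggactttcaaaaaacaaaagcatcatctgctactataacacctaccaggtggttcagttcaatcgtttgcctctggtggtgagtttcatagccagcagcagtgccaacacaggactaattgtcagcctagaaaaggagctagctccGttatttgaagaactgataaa
Gm5900: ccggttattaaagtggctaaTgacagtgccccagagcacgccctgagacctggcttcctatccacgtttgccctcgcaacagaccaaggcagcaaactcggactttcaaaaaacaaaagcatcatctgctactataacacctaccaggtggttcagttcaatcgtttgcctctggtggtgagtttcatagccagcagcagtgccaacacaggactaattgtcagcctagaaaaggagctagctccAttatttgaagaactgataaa
Each copy thus held long stretches with no base that tells it from its parent. How such reads were counted is not given in the sources used here, and they may have gone to either gene or to neither.

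The libraries held 22733189 to 43562909 counts each. At that depth 0 counts allow a level of up to 0.0775 to 0.127 CPM (3 counts), for counting error alone. The Tet2 row did not separate the libraries labelled Tet2-/-: its mean was 59 ± 7.46 CPM in WT, 48.3 ± 12 in Tet2-/-, 59 ± 15.1 in Nras(G12D), 55.6 ± 7.38 in the double mutant and 49.3 ± 23.8 in the leukemic double mutant (SD, n = 3 each). The Tet2-null minus Tet2-intact difference of Tet2 was -0.19 ± 0.22 (SE, log2), with an adjusted p of 0.803 by limma. Nothing used here says which exons the allele lacks, and the count of the whole gene does not check the genotype. Ddx3y, a gene of the Y chromosome, was above 10 CPM in 5 libraries: 0 of WT, 2 of Tet2-/- and 1 of each other group. The sexes thus appear unevenly spread over the groups, and Tet2-/- minus WT cannot be told fully apart from sex. The 8 LSK markers summed to 2347 to 5900 CPM in the 12 non-leukemic libraries and to 678 to 2789 CPM in the leukemic ones. Erythroid markers summed to 177 to 2039 CPM in the leukemic libraries and to 25.8 to 157 CPM in the others. The part of these markers in the leukemic values below was not tested. In bulk RNA, fewer cells of a type and less RNA per cell cannot be told apart.

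Rpl34 was low in all 6 Tet2-null libraries. It stood at 145, 144 and 109 CPM in WT and at 41.8, 42.5 and 58.7 CPM in Tet2-/-. In Nras(G12D) it was 245, 143 and 168 CPM, and in the double mutant 50.4, 47.1 and 57.8 CPM. The leukemic double mutant libraries, which carry the same genotype label as the double mutant, held 142, 192 and 196 CPM. The Tet2-null libraries (41.8 to 58.7 CPM) did not overlap with the other 9 (109 to 245 CPM). By group mean the order was Tet2-/- (47.7 CPM), double mutant (51.8), WT (132), leukemic double mutant (177) and Nras(G12D) (185), and the ranges of neighbours in that order overlapped except between double mutant and WT. Across all tested genes, 0.359% were called in Tet2-null minus Tet2-intact, the contrast the choice of genes used, and nothing is read from the members' place in it.

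As fitted differences (log2, ± SE), Rpl34 was -1.48 ± 0.24 in Tet2-/- minus WT, 2.79-fold lower, and -1.35 ± 0.24 in double mutant minus WT. In double mutant minus Nras(G12D) it was -1.81 ± 0.24, 3.5-fold lower. It was 0.46 ± 0.24 in Nras(G12D) minus WT and 0.41 ± 0.24 in leukemic double mutant minus WT. Leukemic double mutant minus double mutant gave 1.76 ± 0.24, 3.39-fold higher. The Tet2 effect with Nras(G12D) minus that without it was -0.33 ± 0.34.

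Rpl34-ps1 ran the other way. WT libraries held 40, 32 and 22 counts, Tet2-/- 517, 674 and 896, Nras(G12D) 86, 43 and 38, double mutant 617, 631 and 708, and leukemic double mutant 41, 49 and 54. In CPM the Tet2-null libraries held 19 to 28.6 and the other 9 held 0.805 to 3.17, with no overlap. The group means were 1.19 ± 0.363 CPM in WT, 1.57 ± 0.144 in the leukemic double mutant, 1.82 ± 1.17 in Nras(G12D), 21.7 ± 2.94 in the double mutant and 23.6 ± 4.36 in Tet2-/- (SD, n = 3 each). The last 2 overlapped, as did the first 3. Tet2-/- minus WT was 4.32 ± 0.39 (log2, SE), a 19.9-fold higher level. The double mutant was 18.4-fold above WT and the leukemic double mutant 13.7-fold below the double mutant.

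**Figure D1:**
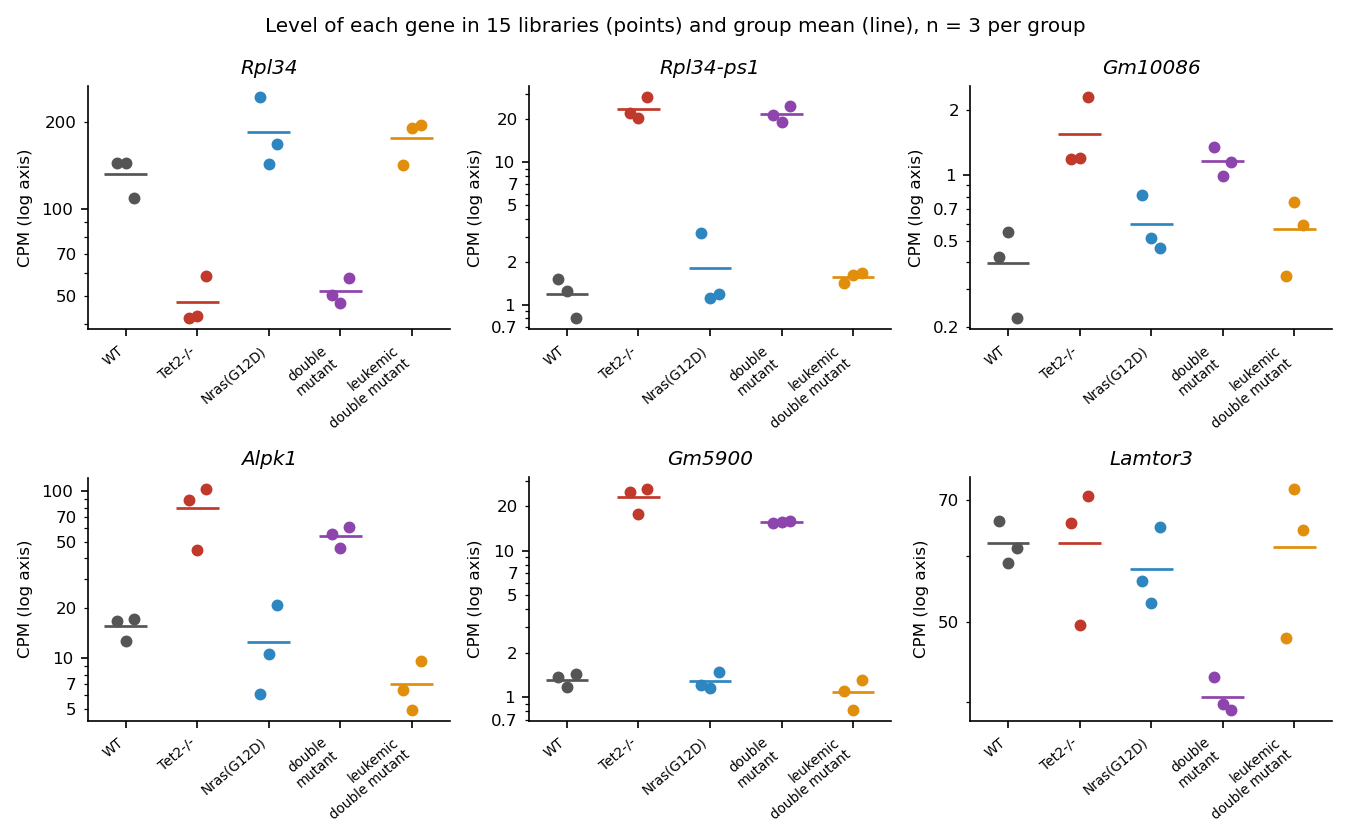
CPM on a log axis of Rpl34, its copies Rpl34-ps1 and Gm10086, Alpk1, Gm5900 and its parent Lamtor3 in each of the 15 libraries (points, 3 per group) with the group mean (line). In the Tet2-/- and double mutant groups Rpl34 sits at 41.8 to 58.7 CPM, below the other 9 libraries, and Rpl34-ps1, Gm5900 and Alpk1 sit above theirs; Lamtor3 overlaps.

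Within each library, the share of Rpl34-ps1 in the summed counts of Rpl34 and Rpl34-ps1 does not depend on depth or scaling. That share was 1.04, 0.864 and 0.734% in WT and 34.4, 32.4 and 32.7% in Tet2-/-. Nras(G12D) libraries had 1.28, 0.769 and 0.698%, double mutant libraries 29.7, 28.8 and 30.1%, and leukemic libraries 0.984, 0.833 and 0.849%. The 95% Wilson interval of the lowest Tet2-null share was 26.9 to 30.7%, and that of the highest share elsewhere was 1.04 to 1.58%. The 6 Tet2-null libraries therefore formed a narrow band near 30%, and the leukemic libraries fell in the range of WT and Nras(G12D). The mean share was 33.2 ± 1.11% in Tet2-/- and 29.5 ± 0.673% in the double mutant (SD, n = 3 each), and these ranges did not overlap with each other either. The intervals cover counting error only, since reads without molecular identifiers are not independent molecules.

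The gain of the copy was smaller than the loss of the parent. From WT to Tet2-/-, mean Rpl34 differed by -84.7 CPM and mean Rpl34-ps1 by 22.4 CPM, which is 26.5% of the loss. From WT to double mutant the copy's gain was 25.5% of the parent's loss. From Nras(G12D) to double mutant it was 14.9%. Summed with all its copies in the table, Rpl34 was 134 ± 21 CPM in WT, 73.6 ± 14.6 in Tet2-/-, 188 ± 54.6 in Nras(G12D), 75.3 ± 8.52 in the double mutant and 179 ± 30.7 in the leukemic double mutant (SD, n = 3 each). The summed difference was -0.88 ± 0.24 (log2, SE) in Tet2-/- minus WT, 1.83-fold lower where Rpl34 alone was 2.79-fold lower. In Tet2-null minus Tet2-intact the sum was at -1.08 ± 0.17 and Rpl34 alone at -1.64 ± 0.17. The sum was below its Tet2-intact level in all 6 Tet2-null libraries, at 64.7 to 90.4 CPM against 110 to 250 CPM. Reads that were counted for neither gene are not in the sum, and a shift of reads between the rows was not tested.

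By sequence, 16 copies of Rpl34 were found in the annotation, of which 10 were in the table and 2 passed the filter. The other copy that passed, Gm10086, was on another chromosome than Rpl34-ps1 and at much lower counts. Its counts were 11, 14 and 6 for WT, 28, 40 and 72 for Tet2-/-, 22, 20 and 15 for Nras(G12D), 39, 33 and 33 for double mutant and 10, 23 and 19 for leukemic libraries. The Tet2-null libraries held 0.995 to 2.3 CPM and the other 9 held 0.22 to 0.812 CPM. Since none of those 9 reached 1 CPM, Gm10086 passed the filter only through the libraries where it is high, and its difference of 1.47 ± 0.34 (log2, SE) in Tet2-null minus Tet2-intact is given without a test. The share of Gm10086 in the summed counts of Rpl34 and Gm10086 was 0.29 ± 0.0894% in WT and 3.1 ± 0.577% in Tet2-/- (SD, n = 3 each). The 8 copies that did not pass had at most 10 counts in any library and were not tested. Of these, Gm4705 had 27 counts over the 6 Tet2-null libraries and 30 over the 6 Tet2-intact ones, and Gm13786 had 46 and 20, with 1 over the leukemic libraries. The other 6 had at most 10 counts over either set of 6 libraries. Gm4705 and Gm13786 were named after their counts were seen.

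Gm5900 moved like Rpl34-ps1, although its parent is another gene. WT libraries held 36, 30 and 39 counts of it, Tet2-/- 588, 586 and 830, Nras(G12D) 33, 45 and 48, double mutant 448, 517 and 457, and leukemic double mutant 32, 25 and 42. The Tet2-null libraries held 15.5 to 26.5 CPM and the other 9 held 0.823 to 1.49 CPM. Tet2-/- minus WT was 4.09 ± 0.28 (log2, SE) and double mutant minus Nras(G12D) was 3.60 ± 0.28, or 17-fold and 12.1-fold higher. The leukemic double mutant was 14.6-fold below the double mutant. The Tet2-/- group (17.7 to 26.5 CPM) was above the double mutant (15.5 to 16 CPM) without overlap, and the order of the other 3 groups was within their spread.

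Lamtor3, whose values were looked up only after the sequence match was seen, overlapped between most groups. WT libraries held it at 66, 58.9 and 61.4 CPM, Tet2-/- libraries at 65.7, 49.6 and 70.9 CPM, and Nras(G12D) libraries at 56, 52.7 and 65 CPM. The double mutant stood at 42.9, 39.8 and 39.2 CPM, and the leukemic libraries at 47.8, 72.3 and 64.5 CPM. Tet2-/- and WT overlapped, and the double mutant was below every other library. Lamtor3 was not called in any of the 7 comparisons, and its Tet2-null minus Tet2-intact difference was -0.26 ± 0.15 (log2, SE) with a limma adjusted p of 0.588. The lowest adjusted p was 0.059, in leukemic double mutant minus double mutant (0.58 ± 0.21).

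The share of Gm5900 in the summed counts of Lamtor3 and Gm5900 also set the Tet2-null libraries apart from all others. It did so by a smaller factor than the share of Rpl34-ps1. The share of Gm5900 was 27.5, 26.3 and 27.2% in Tet2-/- and 26.5, 28.1 and 29.1% in the double mutant. It was 1.95 to 2.27% in WT, 2.13 to 2.24% in Nras(G12D) and 1.13 to 2.25% in the leukemic double mutant. All 6 Tet2-null libraries thus lay between 26.3 and 29.1%. The sum of both genes was 63.4 ± 3.67 CPM in WT, 85.1 ± 15.8 in Tet2-/-, 59.2 ± 6.55 in Nras(G12D), 56.3 ± 1.77 in the double mutant and 62.6 ± 12.4 in the leukemic double mutant (SD, n = 3 each). Its Tet2-null minus Tet2-intact difference was 0.17 ± 0.15 (log2, SE).

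**Figure D2:**
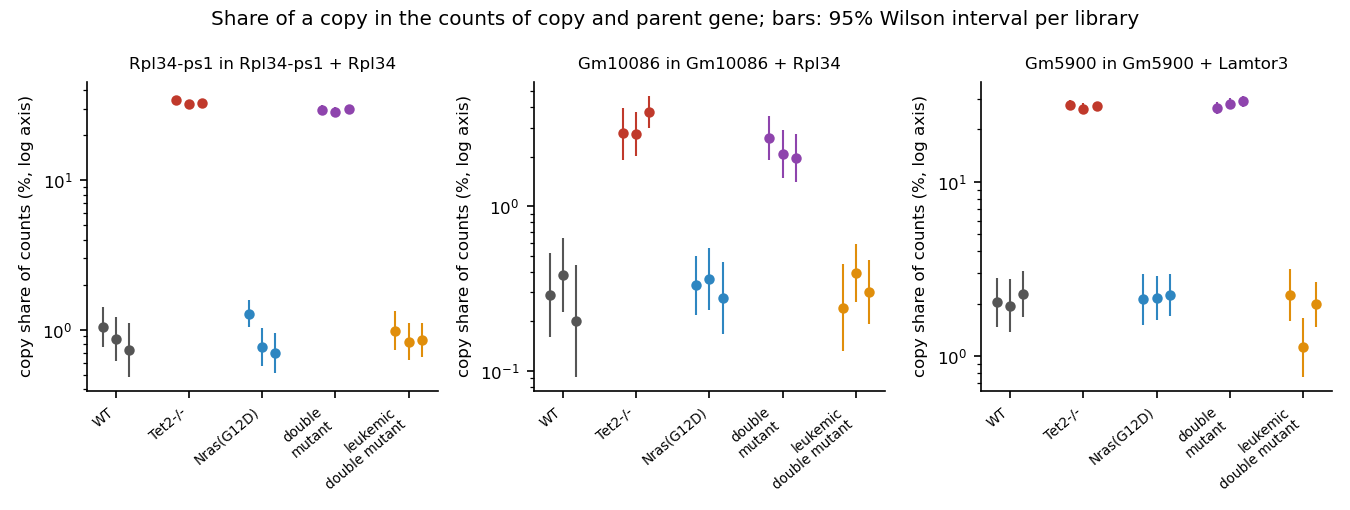
Share of each copy in the summed counts of copy and parent, in percent on a log axis, for 15 libraries with 95% Wilson intervals. Rpl34-ps1 takes 28.8 to 34.4% and Gm5900 26.3 to 29.1% in the Tet2-/- and double mutant libraries; in the other 9 libraries they take at most 1.28% and 2.27%.

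Both copies were set beside the other processed copies of the genome whose parent could be found by sequence and where both passed the filter, 415 pairs in all. Pairs were formed after the values of the copies above were known, so the ranks are a description. Rpl34-ps1 (4.03) and Gm5900 (3.84) had the highest and the next highest log2 difference in Tet2-null minus Tet2-intact, and Gm10086 (1.47), which passed the filter as said above, was at rank 7. The median of all copies was -0.05, and 11 of them were above 1. Of the 7 copies whose parent lies within 10 Mb of Tet2, these 3 were above 1. The other 4 were Gm11295 (parent Elovl6, 0.40), Gm7327 (Eif4e, 0.09), Gm15361 (Ube2d3, -0.25) and Gm8203 (H2afz, -0.39). Among the 408 copies with a parent elsewhere, 8 were above 1 and the highest was Gm6472, a copy of Rps7, at 1.99. Copies with a parent near Tet2 thus ran from -0.39 to 4.03. Rpl34-ps1 and Gm5900 were chosen for their levels in these groups, so counting them among the 7 only describes the choice. Without them, 1 of 5 copies with a parent near Tet2 was above 1, Gm10086, and the median of the 5 was 0.09.

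**Figure D3:**
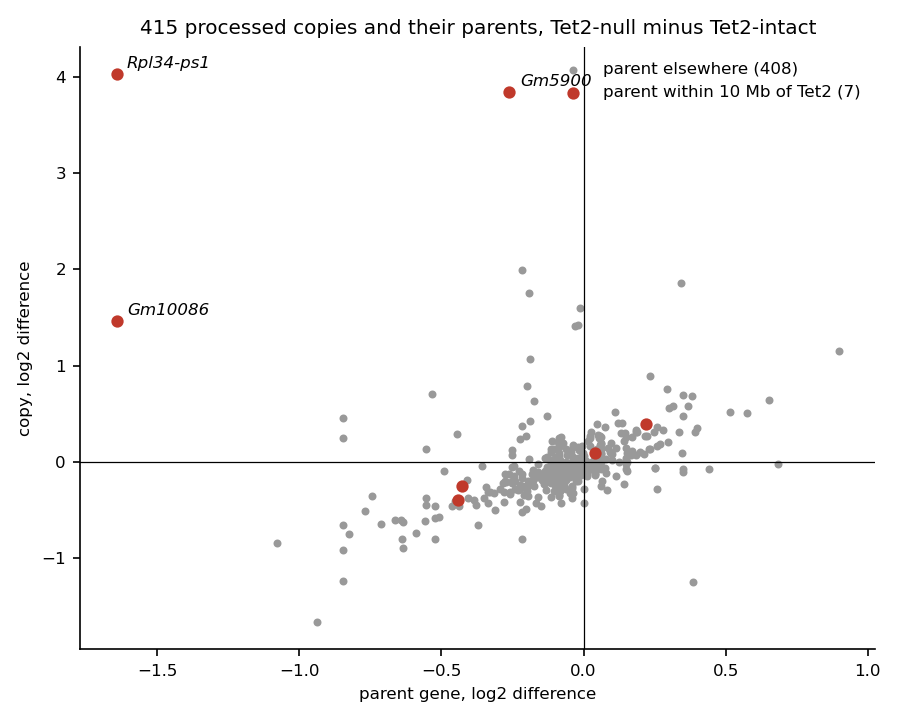
Log2 difference of each of 415 processed copies (y axis) against that of its parent (x axis) in Tet2-null minus Tet2-intact. Red points are the 7 copies whose parent lies within 10 Mb of Tet2; Rpl34-ps1 at 4.03 and Gm5900 at 3.84 stand above all others.

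In Tet2-null minus Tet2-intact none of the 8 tested genes that flank the copies was called. As 0.359% of all genes were called there, this says little about so few genes. Next to Rpl34-ps1 on chromosome 6, Thnsl2, 3.2 kb away, differed by 0.31 ± 0.32 (log2, SE), and Eif2ak3, which encodes the stress kinase PERK, by 0.13 ± 0.31. Rpia and Krcc1, the other neighbours, differed by -0.15 ± 0.33 and -0.20 ± 0.18. Around Gm5900 on chromosome 7, Trim30d differed by 0.47 ± 0.27, Fam160a2 by -0.32 ± 0.24, Olfr658 by 0.18 ± 0.64 and Prkcdbp by -0.36 ± 0.76. The limma adjusted p ran from 0.588 for Trim30d to 0.942 for Olfr658. Between double mutant and leukemic double mutant, where both copies were lower in the leukemic libraries, 3 of the 8 fell, where 24.3% of all genes were called. They were Krcc1 (-0.90 ± 0.26, adjusted p 0.0248), Trim30d (-1.92 ± 0.38, adjusted p 0.005) and Olfr658 (-2.63 ± 0.91, adjusted p 0.0485). Under 14 alternatives, Krcc1 (-1.13 to -0.77) was not called in 5 and Olfr658 (-4.02 to -1.55) in 9, for both among them the omission of any double mutant library or of leukemic library 2 or 3. Trim30d (-2.21 to -1.35) was not called in 1, the fit of only the groups compared. Around Rpl34, Ostc, 17.4 kb away, differed by -0.24 ± 0.13 in Tet2-null minus Tet2-intact (adjusted p 0.578), and Hadh, Sec24b and Lef1 were not called either. Lef1, a transcription factor of the Wnt pathway, was at 0.121 to 1.56 CPM throughout.

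Rpl34 was then set among 81 other genes of the cytosolic ribosome. It was chosen on its levels in these groups, so its places among the 81, here and below, only describe the choice. In Tet2-null minus Tet2-intact none of the 81 was called by limma, against 0.359% of all genes, 4 had an unadjusted p under 0.05, and their median was -0.08 on the log2 scale (0.02 for all genes). Leaving out single libraries gave at most 2 calls. Rpl34 at -1.64 was below all 81, of which the lowest was Rps2 at -0.85 ± 0.34 (adjusted p 0.459), followed by Rpl13 at -0.77 ± 0.33 (adjusted p 0.492). Rpl8, a neighbour of the peptidyl transferase centre, was at -0.51 ± 0.15 (adjusted p 0.251). In Tet2-/- minus WT, 2 of the 81 were lower than Rpl34, the lowest being Rpl13 at -1.63 (none called, against 0.23% of all genes; 7 at an unadjusted p under 0.05). Rpl13 was at 77.2, 304 and 86 CPM in Tet2-/- and at 271, 521 and 428 CPM in WT, so its libraries overlapped where those of Rpl34 did not.

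In double mutant minus WT the lowest of the 81 genes was Rpl29 at -0.20, and Rpl34 at -1.35 was below all of them (none called, against 0.682% of all genes; 1 at an unadjusted p under 0.05). In double mutant minus Nras(G12D) the lowest was Rps7 at -0.61 and the median was -0.40, and Rpl34 was at -1.81 (none called, against 0.079%; 13 at an unadjusted p under 0.05). In Nras(G12D) minus WT the median of the 81 was 0.46, and Rpl34 at 0.46 had 36 of them below it. No gene of the table was called in that comparison (0%), where 577 of 13927 had an unadjusted p under 0.05. Against WT, the leukemic double mutant gave a median of 0.36 over the 81 and 0.41 for Rpl34, with 55 of them below it. In leukemic double mutant minus double mutant, 6 of the 81 rose, or 7.41% against 24.3% of all genes, the highest being Rpl29 at 0.91 ± 0.24 (adjusted p 0.0176). Rpl34 at 1.76 was above all 81 there. Those 6 calls were lost when libraries were scaled by total counts or quantile normalized, and the median of the 81 then moved from 0.26 to 0.03 and -0.06.

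**Figure D4:**
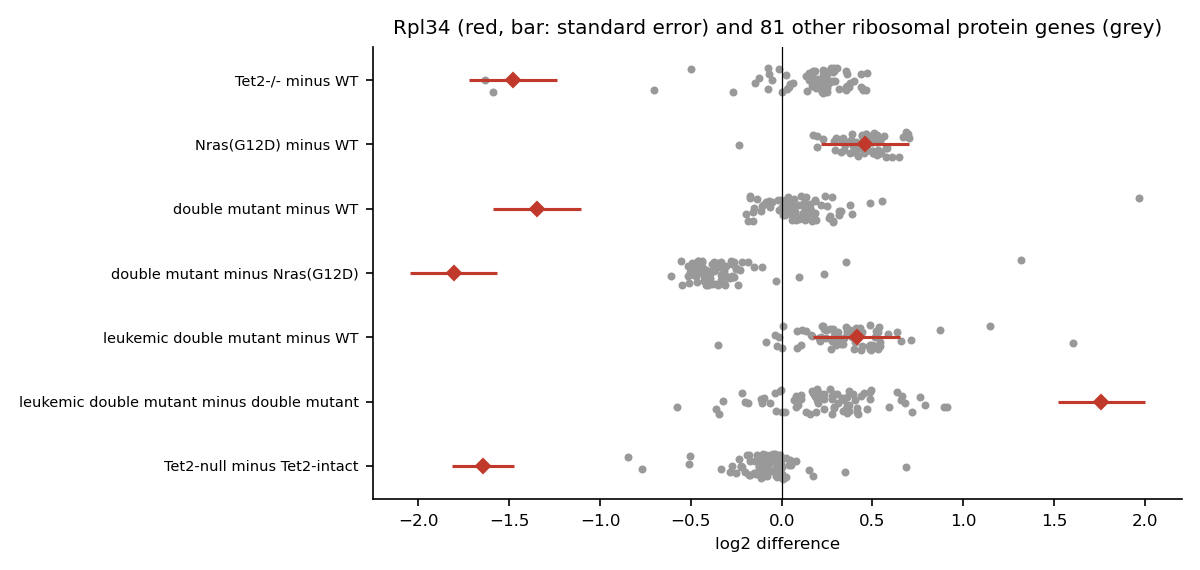
Log2 differences of Rpl34 (red diamond, bar: standard error) and of 81 other ribosomal protein genes (grey points) in the 7 comparisons. Rpl34 lies within the other genes in Nras(G12D) minus WT and leukemic double mutant minus WT, and outside them at -1.35 in double mutant minus WT, -1.81 in double mutant minus Nras(G12D), 1.76 in leukemic double mutant minus double mutant and -1.64 in Tet2-null minus Tet2-intact.

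Alpk1 was high in the Tet2-null libraries. It stood at 16.8, 12.8 and 17.2 CPM in WT and at 88.3, 44.5 and 104 CPM in Tet2-/-. In Nras(G12D) it was 6.13, 10.6 and 20.9 CPM, in the double mutant 55.5, 46.1 and 61.6 CPM. The leukemic libraries were at 6.45, 4.94 and 9.63 CPM. The lowest Tet2-null library (44.5 CPM) was above the highest of the other 9 (20.9 CPM). By group mean the order was leukemic double mutant (7.01 ± 2.4 CPM), Nras(G12D) (12.5 ± 7.58), WT (15.6 ± 2.41), double mutant (54.4 ± 7.81) and Tet2-/- (79 ± 31, SD, n = 3 each). Neighbours in that order overlapped except WT and double mutant.

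The fitted difference of Alpk1 was 2.26 ± 0.42 (log2, SE) in Tet2-/- minus WT, 4.8-fold higher, and 1.80 ± 0.42 in double mutant minus WT. In double mutant minus Nras(G12D) it was 2.29 ± 0.42, and the Tet2 effect with Nras(G12D) minus that without it was 0.02 ± 0.59. The leukemic double mutant was 7.99-fold below the double mutant (SE of the log2 difference 0.42). Against WT, the leukemic double mutant was at -1.20 ± 0.42, so that Alpk1, unlike Rpl34-ps1 and Gm5900, lay below WT in all 3 leukemic libraries. Alpk1 has no copy or parent among the genes above.

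Dendritic cell markers were higher in the Tet2-null libraries than in WT, with overlap with Nras(G12D). The 6 markers (H2-Aa, H2-Ab1, Cd74, Itgax, Siglech and Batf3) summed to 431 to 620 CPM in WT, 1027 to 3847 in Tet2-/-, 516 to 3158 in Nras(G12D), 2116 to 3534 in the double mutant and 410 to 647 in the leukemic double mutant, and 1 of the 6, H2-Aa, was called in Tet2-null minus Tet2-intact, where 0.359% of all genes were. None was at 0 in all libraries. Nras(G12D) library 1, at 3158 CPM of these markers, held Alpk1 at 6.13 CPM and Rpl34 at 245 CPM. Tet2-/- library 1, at 1027 CPM of the markers, held Alpk1 at 88.3 CPM and Rpl34 at 41.8 CPM. In other libraries the markers and Alpk1 were high or low together. Tet2-/- library 3, at 3847 CPM of the markers, held Alpk1 at 104 CPM and Rpl34 at 58.7 CPM. The leukemic libraries, at 410 to 647 CPM of the markers, held Alpk1 at 4.94 to 9.63 CPM and Rpl34 at 142 to 196 CPM. These libraries are examples, and the part of dendritic cells in the level of Alpk1 was not tested.

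Among the genes listed for the TIFA and NF-kB pathway, only the cytokine gene Il6 passed the test in Tet2-null minus Tet2-intact. Tifa encodes the substrate of ALPK1 and is the next tested neighbour of Alpk1 on the chromosome (9.28 kb away). It was at 47 to 75.1 CPM in WT and 53.6 to 96.3 CPM in the Tet2-null libraries. Its Tet2-null minus Tet2-intact difference was 0.15 ± 0.18 (log2, SE, adjusted p 0.808 by limma). Of the 26 genes of the list of the TIFA and NF-kB pathway, 25 were tested and 1, Il6, rose in that contrast, or 4% against 0.359% of all genes; the list's median was 0.16 (0.02 for all genes). Il6, a cytokine induced by NF-kB, was at 0.305, 0.469 and 0.146 CPM in WT and 0.738, 0.413 and 0.434 CPM in Nras(G12D). Tet2-/- libraries held 1.4, 0.876 and 1.47 CPM, and double mutant libraries 2.63, 2.62 and 3.44 CPM. The difference was 2.26 ± 0.35 (log2, SE) with a limma adjusted p of 0.0156, higher in 6 of 6 Tet2-null libraries, and it was no longer called without double mutant library 1 (2.29) or library 3 (2.19). The leukemic libraries held Il6 at 0.824, 1.15 and 2.24 CPM, above WT in all 3, where Alpk1 was below WT. Outside the Tet2-null libraries, Il6 reached 1 CPM only in the leukemic libraries at 1.15 and 2.24 CPM. It thus passed the low-value filter only through the Tet2-null libraries, where it is high, and its calls here and below are a description. Cxcl2 (2.86 ± 0.70, adjusted p 0.124) and Tnf (1.09 ± 0.40, adjusted p 0.407) did not pass, nor did Ikbkb, a kinase subunit that activates NF-kB (0.33 ± 0.14, adjusted p 0.484). Outside the Tet2-null libraries, Cxcl2 reached 1 CPM only in leukemic library 3, at 4.27 CPM. Like Il6, it thus passed the low-value filter only through Tet2-null libraries, and its results here and below are a description.

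In Tet2-/- minus WT none of the 25 was called by limma (9 at an unadjusted p under 0.05, against 0.23% of all genes called), and in double mutant minus WT only Il6 was, with an adjusted p of 0.0112. Of the list, in leukemic double mutant minus WT, 6 rose and 2 fell, or 32% against 24.7% of all genes. The 6 were Tab3, Chuk, Tnfaip3, Cxcl2, Il1b and Il6, and the 2 were Rel and Nfkbie. Cxcl2 was at 0.275, 0.527 and 4.27 CPM in the leukemic libraries and at most 0.196 CPM in WT. In leukemic double mutant minus double mutant, where Alpk1 was 7.99-fold lower, Tab1 (0.81 ± 0.25) and Tab3 (1.32 ± 0.36), adaptors of the kinase TAK1, rose and no gene of the list fell, so that 8% were called against 24.3% of all genes. None of the 5 other alpha-kinases (Alpk2, Alpk3, Eef2k, Trpm6 and Trpm7) was called in Tet2-null minus Tet2-intact, where 0.359% of all genes were, and none had an unadjusted p under 0.05. Alpk3 fell in leukemic double mutant minus double mutant, by 2.02 ± 0.44 (log2, SE, limma adjusted p 0.00711), and in leukemic double mutant minus WT its difference was -2.34 ± 0.44 (adjusted p 0.00372). As 1 of 5 genes, or 20%, this is near the 24.3% and 24.7% of all genes called there.

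Near Alpk1, Zgrf1, a helicase gene 52.3 kb away, differed by 0.77 ± 0.17 in Tet2-null minus Tet2-intact (adjusted p 0.0882), and Larp7 by 0.06 ± 0.15 and Ap1ar by 0.12 ± 0.37. Zgrf1 was at 115, 70.7 and 114 CPM in Tet2-/- and at 43.9, 49.8 and 52.2 CPM in WT. Double mutant libraries held it at 52.6, 54.8 and 50.9 CPM, above the highest WT library in 2 of 3 and far less so than Alpk1. None of these neighbours was called in Tet2-null minus Tet2-intact, where 0.359% of all genes were.

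Within 10 Mb of Tet2, 75 other genes were tested. In Tet2-null minus Tet2-intact 3 of them were called, or 4% against 0.359% of all genes, 1 higher and 2 lower, with a median of 0.09 (0.02 for all genes). On the rest of the chromosome 1 of 541 was called (0.185%), Ifi44l, and within 5 Mb of Nras 1 of 85 (1.18%), Cttnbp2nl. Each of these was not called in 12 of 20 alternative settings. Ifi44l, 18.3 Mb from Tet2, was at 73.6, 0 and 62.6 CPM in Tet2-/- and 22.3, 21.6 and 38.2 CPM in the double mutant. In the other 9 libraries it was at most 0.0659 CPM. It passed the low-value filter only through the libraries where it is high, so its call is a description too. Gbp2b, an interferon-induced GTPase gene 9.1 Mb from Tet2, was at 88, 28.6 and 76.4 CPM in Tet2-/- and at 28, 18.5 and 35.1 CPM in the double mutant. It was at most 0.183 CPM in the WT and Nras(G12D) libraries and at 0.24, 5.8 and 0.312 CPM in the leukemic double mutant (limma adjusted p 2.36e-05 in Tet2-null minus Tet2-intact). Like Alpk1, Gbp2b was higher in each Tet2-null library than in any of the other 9. Only 1 of those 9 reached 1 CPM of Gbp2b, so it passed the low-value filter through the libraries where it is high. Its call, 1 of the 3 above, is therefore a description. Gm19708 (-2.50 ± 0.32, adjusted p 0.00377) and Bank1, a B cell adaptor gene (-1.75 ± 0.34, adjusted p 0.0419), were lower. Bank1 was not called in 12 of 20 alternative settings, among them the omission of any WT or double mutant library, and B cell markers, whose part was not tested, summed to 3748 to 9455 CPM in WT against 599 to 2172 CPM in the Tet2-null libraries. Nras(G12D) held 747 to 1963 CPM of these markers, in the range of the Tet2-null libraries, with Bank1 at 2.44, 8.47 and 9.07 CPM. Only Gbp2b of the 75 genes had a higher difference than Alpk1 (2.27 ± 0.30), and 2 had a lower one than Rpl34. Both places only describe the choice of Alpk1 and Rpl34. Counts of calls in the window ranged from 2 to 12 over the settings tried.

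**Figure D5:**
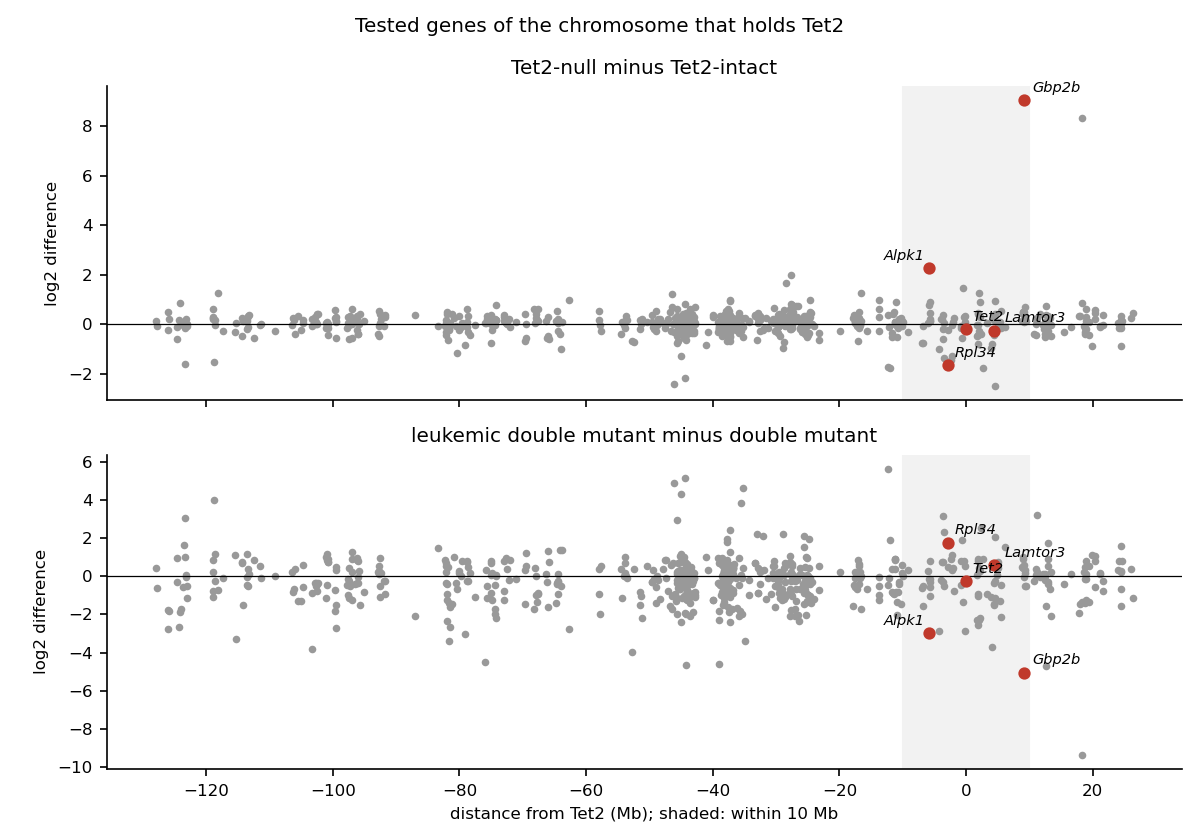
Log2 difference of each tested gene of the chromosome that holds Tet2 (grey points; named genes red) against its distance from Tet2 in Mb, with the 10 Mb on each side shaded, in Tet2-null minus Tet2-intact (top) and leukemic double mutant minus double mutant (bottom). Rpl34 is at -1.64 in the top panel and 1.76 in the bottom panel, and Tet2 at -0.19 and -0.27; Alpk1, at 2.27 in the top panel, is below 0 in the bottom panel.

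In leukemic double mutant minus double mutant, 25 of the 75 genes were called, or 33.3% against 24.3% of all genes, 10 higher and 15 lower. Gbp2b, which passed the filter as said above, was at -5.06 ± 1.04 (log2, SE, limma adjusted p 0.00586). These comparisons share the double mutant libraries with Tet2-null minus Tet2-intact, so opposite signs in both are not independent of each other.

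Over the 15 libraries, the tested genes most like Rpl34 by Pearson's r of log2 levels were Psmb5, a proteasome subunit gene (r = 0.860), Mif (0.855), Tbcb (0.850), Sec61b (0.836) and Syce2 (0.835). The least like were Gm5900 (-0.947), Alpk1 (-0.906) and Tbc1d23 (-0.878). Rpl34-ps1 was at -0.871. The genes most like Alpk1 were Gm5900 (0.942), Zufsp (0.926), Gm43858 (0.922), Mtmr11 (0.920) and Dnaaf3 (0.909), and the least like Cnih1 (-0.933), Ndufb5 (-0.925) and Mif (-0.914). The r among Rpl34, Rpl34-ps1, Gm5900 and Alpk1 only describe their choice, since all were picked on levels that follow the same groups. All r describe 15 libraries that share groups and scaling and fall into separate clusters, so no p is given. Unlike those of Rpl34, the Psmb5 levels of Tet2-/- (28.4, 66 and 56.8 CPM) and of WT (64.5 to 79.5 CPM) overlapped. Double mutant libraries, with 29.8, 42.2 and 33.9 CPM of Psmb5, lay below all WT, Nras(G12D) (75.8 to 91.3 CPM) and leukemic libraries (80.6 to 110 CPM). Leukemic double mutant minus double mutant gave 1.47 ± 0.28 (log2, SE) for Psmb5 and 1.76 ± 0.24 for Rpl34. Psmb5 was picked for its likeness to Rpl34, so these values only describe that choice.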

How the data were processed

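RNA sequencing of 15 LSK libraries was used, 5 groups of 3. The authors' deposited table gives log2 values: log2 CPM with 0.5 added to each count, a unit read from the values, of which 100% give whole counts under that formula (tolerance 1e-06). The authors' scaling factor per library, 0.813 to 1.12, is part of these log2 values. The tools were STAR 2.4.0f1, limma 3.28.21, edgeR 3.14.0 and bcl2fastq, per the submitters' processing notes, which also list NCBIM37 and mm10 but not their use. Neither the counter nor its annotation and strand setting is stated there, and reads of overlapping or near-identical genes may sit in either row.

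CPM is the recovered count over the authors' library size. The 13927 genes that reached 1 CPM in 3 libraries or more were fitted in R 4.3.3 with limma 3.58.1 (a mean per group, all libraries, eBayes with trend), with two-sided tests and Benjamini-Hochberg adjustment over all tested genes in each of 7 comparisons, called below 0.05. The fit was tested on simulated data. Folds come from log2 values with 0.5 counts added, and understate the changes of low genes. Copies were paired with parents by blastn 2.17.0 on GENCODE M21 transcripts, with at least 80% of the copy identical. By the description labels, column N2-3 is Nras(G12D) library 2, and columns tagged BMT are leukemic libraries.

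Named genes were the members, Tet2, Nras, copies of Rpl34, the nearest 2 tested genes on each side of a member, up to 4 genes per list by adjusted p, and the 5 most and 3 least like genes. Beyond that rule, Lamtor3, the other copies and further list members that passed the test were named after their values were seen. The members and lists were chosen with earlier results of these data known. A result of the ribosomal list in leukemic double mutant minus WT is not reported here.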

Additional observations from a re-analysis of the deposited data

How the results depend on the processing

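All fitted differences of the 4 members in Tet2-null minus Tet2-intact kept their sign under 20 alternatives each: Rpl34 from -1.73 to -1.53, Rpl34-ps1 from 3.89 to 4.27, Gm5900 from 3.79 to 3.93 and Alpk1 from 2.06 to 2.50. The numbers of genes called over the whole table moved more, which bears on the background shares above. In Tet2-/- minus WT it was 32, and 53 with no low-value filter, 144 with quantile normalization, 57 with only the groups compared and 6948 with voom and sample quality weights; leaving out a library gave 5 to 2235. In Nras(G12D) minus WT it was 0, and 1 with only the groups compared; without single libraries 0 to 5. In double mutant minus WT it was 95, and 213 with quantile normalization, 574 with only the groups compared, 3646 with quality weights and 396 with Y-linked genes as a covariate; without single libraries 6 to 992. In double mutant minus Nras(G12D) it was 11, and 25, 5 and 21 with quantile normalization, only the groups compared and quality weights; without single libraries 9 to 114. In leukemic double mutant minus WT it was 3443, and 8429 with quality weights; without single libraries 1356 to 5251. In leukemic double mutant minus double mutant it was 3382, and 741 with only the groups compared and 7899 with quality weights; without single libraries 1185 to 5295. In Tet2-null minus Tet2-intact it was 50, and 100, 121 and 718 with quantile normalization, only the groups compared and quality weights; without single libraries 13 to 370. The cause was not tested. Where a group is left with 2 libraries the fit still pools the spread over all groups. The list of 81 ribosomal protein genes gave 29 calls with quality weights in Tet2-/- minus WT, where it otherwise gave 0 to 6. Summing Lamtor3 and Gm5900 was added after seeing the data. By Spearman's rho in place of Pearson's r, Psmb5 and Sec61b shared rank 2 among the genes most like Rpl34 and Mif and Syce2 fell to ranks 38 and 50, while Gm5900 was at -0.718.

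Replicate numbers did not pair the libraries: over 30 pairs with the same number, the correlation of deviations ran from -0.346 to 0.294 and 12 exceeded 0.1. With the number as a replicate block, 713 genes were called in Tet2-/- minus WT in place of 32, and no other comparison's count moved by over 1.5 times.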
